A study of Mus musculus with 15 samples.

Results

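The genes described here encode the secreted and membrane-bound metalloproteinases that cut the extracellular matrix, and their inhibitors. They are the matrix metalloproteinases (Mmp), the ADAMTS proteases (Adamts), the ADAMTS-like proteins (Adamtsl) and the tissue inhibitors of metalloproteinases (Timp). Members were all probe sets whose mouse gene symbol is one of these names followed by a number, with 1 letter allowed after it. The rule found 49 genes with 1 probe set each among 25206 probe sets, of which 23185 carried a gene symbol. There were 22 Mmp, 18 Adamts, 5 Adamtsl and 4 Timp genes.

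The levels come from 1-colour Affymetrix arrays of fat cells that were sorted for UCP1, the uncoupling protein of thermogenic fat, in UCP1/Tomato mice aged 8 to 10 weeks. BAT (3 arrays) denotes UCP1-positive brown adipocytes, taken from the brown fat of mice without treatment. CL (3 arrays) denotes UCP1-positive beige adipocytes from the inguinal depot after CL316243, an agonist of the beta-3 adrenergic receptor. RS (2 arrays) denotes UCP1-positive cells, called brite adipocytes in the labels, from the same depot after roscovitine, an inhibitor of cyclin-dependent kinases, and another RS array is not analysed here. RG (3 arrays) denotes UCP1-positive beige adipocytes from that depot after rosiglitazone, an agonist of PPARG. WAT (4 arrays) denotes white adipocytes of the inguinal depot that were UCP1-negative, from mice without treatment. The labels name the gate UCP1(GFP) although the mice are called UCP1/Tomato. UCP1-positive inguinal cells of untreated mice were not part of these arrays, so in CL, RS and RG against WAT the drug and the gate cannot be told apart. In BAT against WAT the depot and the gate cannot be told apart. In CL, RS and RG against BAT the drug and the depot cannot be told apart. The labels give no dose, treatment time or sex, and do not say whether the arrays of a group came from separate animals, so each p-value reflects only how these samples vary, which may be technical variation.

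Fat tissue is held in a mesh of collagens, basement membrane and proteoglycans, which adipocytes must remodel as they enlarge or as new adipocytes form. MMPs are made as inactive proenzymes and cut collagens and other matrix proteins. ADAMTS proteases cut mainly proteoglycans such as versican and aggrecan, and some process procollagen. TIMPs bind the active site of these enzymes, and TIMP2 also joins MMP14 on the cell surface to activate MMP2. In fat tissue many of these enzymes are made by stromal cells and macrophages as well as by adipocytes.

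All values are log2 expression values as deposited, so a difference of 1 is a 2-fold change. Levels are not compared between genes, because each probe set has its own response. A group mean of 5 served as a signal level for choosing which genes to give on every array. A member was called when its adjusted p was under 0.05 in limma's moderated test, fitted over all 15 arrays and all probe sets with Benjamini-Hochberg adjustment. Each difference below is followed by its standard error from that fit. The 4 comparisons with WAT use the same WAT arrays.

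The sorted cells carried adipocyte transcripts but were not free of others. The mean of 8 mature adipocyte markers lay between 9.71 and 10.4 on the BAT, CL, RS and RG arrays and between 8.18 and 9.67 on the WAT arrays, with WAT replicate 4 lowest. The mean of 11 macrophage markers lay between 4.89 and 5.20 in BAT, 4.94 and 5.72 in CL, 4.44 and 4.90 in RS, 4.89 and 5.89 in RG and 7.27 and 8.27 in WAT. The mean of 11 stromal and preadipocyte markers lay between 5.22 and 5.83 in BAT, 5.79 and 6.93 in CL, 4.80 and 6.07 in RS, 6.0 and 6.85 in RG and 7.15 and 8.85 in WAT. The mean of 6 mast cell markers was at most 4.59 on the BAT, CL, RS and RG arrays and lay between 4.71 and 6.16 in WAT. All 3 of these lists were higher on every WAT array than on any other array. This was not so for the T cell, mural and smooth muscle, endothelial or neutrophil lists. The T cell mean lay between 3.57 and 4.64 in WAT and between 4.04 and 4.88 in CL. The mural and smooth muscle mean lay between 4.35 and 6.11 in WAT and between 5.33 and 5.74 in CL. Of the macrophage markers, 11 of 11 were lower in BAT, CL and RS than in WAT and 10 of 11 in RG. Of the stromal markers, 11 of 11 were lower in BAT, 6 in CL, 10 in RS and 4 in RG. Of the mast cell markers, 5 of 6 were lower in BAT, 4 in CL, 5 in RS and 6 in RG. Of 10 endothelial markers, 5 were lower in RS (median difference -1.87) and 2 in RG (-1.20), and limma called 0 in BAT (-0.09) and 0 in CL (0.26). The values are logarithmic, and the 10th percentile of all values on an array lay between 1.51 and 2.15. A marker value above 0 therefore does not by itself show that a cell type was present. The part of these cells in the results below was not tested. In sorted bulk samples, fewer cells of a type and less RNA per cell cannot be told apart.

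**Figure D1:**
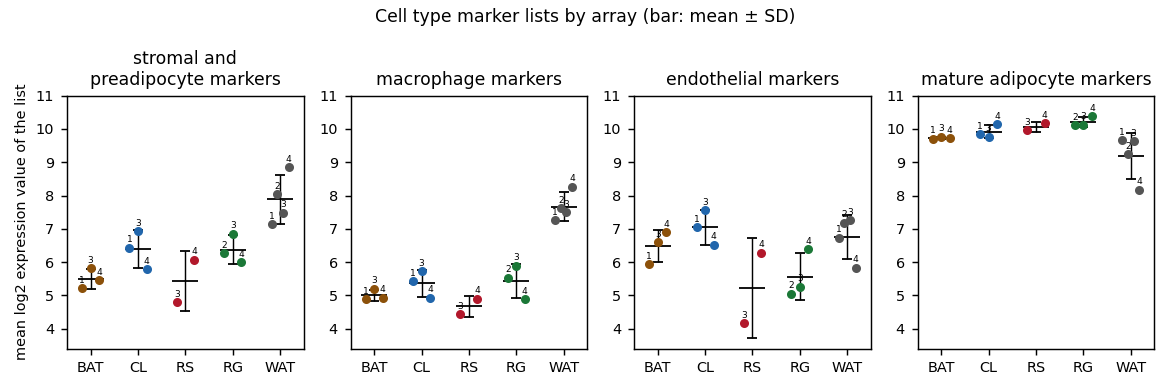
Mean log2 expression value of 4 marker lists (vertical axis) on every array, by group (horizontal axis), with replicate numbers beside the points and bars for the group mean ± SD. Every WAT array lies above all others for the stromal and macrophage lists, RS replicate 3 is the lowest array for stromal, macrophage and endothelial markers, and WAT replicate 4 is the lowest for mature adipocyte markers.

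The metalloproteinase genes were lower in brown and beige adipocytes than in white adipocytes more often than higher. In BAT against WAT, 27 of 49 members were called, against 44.0% of all probe sets. Of these, 18 were lower (36.7% of members, against 16.4% of all probe sets) and 9 were higher (18.4%, against 27.6%). In CL against WAT, 11 members were called, against 25.2% of all probe sets, with 8 lower (16.3%, against 9.97%) and 3 higher (6.12%, against 15.2%). In RS against WAT, 14 members were called, against 21.4%, with 10 lower (20.4%, against 10.3%) and 4 higher (8.16%, against 11.1%). In RG against WAT, 10 members were called, against 11.4%, and all 10 were lower (20.4%, against 6.24%), while limma called 0 higher (against 5.19%). Over all probe sets, 2882 were called in RG against WAT, 1215 without RG replicate 2 and 1044 without RG replicate 4. It was 1555 without WAT replicate 4 and 1773 without WAT replicate 2. The member count was 3 without RG replicate 2, 3 without RG replicate 4, 5 without WAT replicate 4 and 6 without WAT replicate 2. That in RS against WAT was 6 without RS replicate 3, and 3 of those 6 were among the 14.

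Members of higher signal were called lower than in WAT or not called. Of the 49 members, 14 had a mean over all arrays above 5, and 12 of these were lower in BAT than in WAT while none was higher. Among all 6036 probe sets with such a mean, 34.4% were lower and 13.0% higher. In CL against WAT, 4 of the 14 were lower, against 19.4% of probe sets at this signal. In RS against WAT it was 6 of 14, against 21.0%, and in RG against WAT 3 of 14, against 10.5%. The median difference of the 14 was -1.88 in BAT, -1.21 in CL, -1.53 in RS and -0.70 in RG, against -0.25 in BAT, -0.11 in CL, -0.21 in RS and -0.01 in RG over all probe sets at this signal. All members called higher in any comparison with WAT were among the other 35, whose mean over all arrays was 5 or less. Of these 35, limma called 6 lower in BAT, against 10.8% of all probe sets at this signal. It called 4 lower in CL (against 6.98%), 4 in RS (against 6.96%) and 7 in RG (against 4.89%). Most of the RG calls thus had a mean over all arrays of 5 or less. Among them, Adamtsl1, Adamtsl4, Adamtsl5 and Mmp9 had a WAT mean above 5 (6.71, 5.82, 5.36 and 5.87). The numbers lower among the 14 were the same after each array was centred on its median in BAT, RS and RG, and 5 in CL. After quantile normalization they were 9 in BAT, 4 in CL, 4 in RS and 2 in RG.

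**Figure D2:**
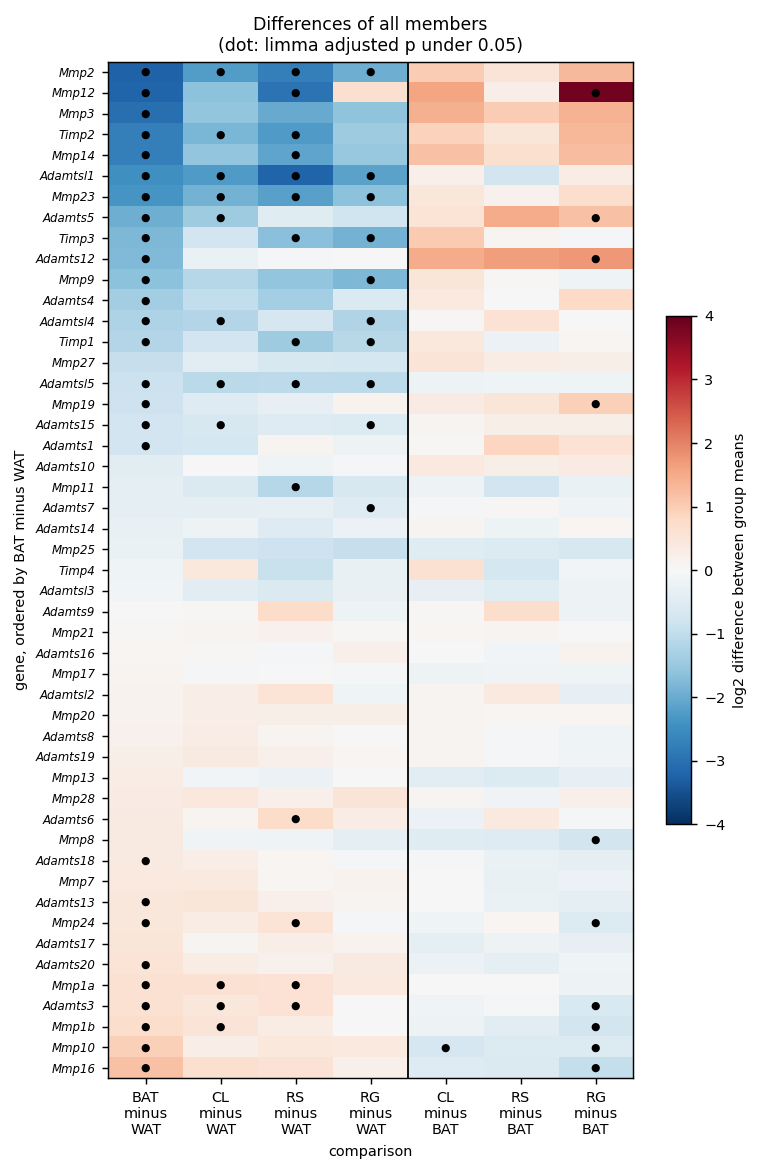
Difference in mean log2 expression value between groups (colour, blue lower and red higher in the first-named group) for the 49 genes (rows, ordered by BAT minus WAT) in 7 comparisons (columns), with a dot where limma's adjusted p was under 0.05. Adamtsl1, Adamtsl5, Mmp2 and Mmp23 have a dot in all 4 comparisons with WAT, and the red cell at the upper right is Mmp12 in RG minus BAT.

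The gelatinases, which cut denatured collagen and the type IV collagen of basement membranes, are Mmp2 and Mmp9. Both were lower in BAT and RG than in WAT, and Mmp2 also in CL and RS. Mmp2, gelatinase A, had values of 4.71, 5.69 and 4.92 in BAT, 6.35, 7.08 and 4.93 in CL, 4.59 and 6.63 in RS, 6.23, 6.79 and 6.21 in RG, and 7.43, 8.66, 7.70 and 9.63 in WAT. Every BAT, CL, RS and RG array was below every WAT array. Mmp2 fell by 3.25 ± 0.57 in BAT against WAT, which is 9.50-fold (limma adjusted p = 0.000589). It fell by 2.24 ± 0.57 in CL (adjusted p = 0.0119), by 2.75 ± 0.65 in RS (adjusted p = 0.0101) and by 1.95 ± 0.57 in RG (limma adjusted p = 0.0398). The WAT spread was wide, and WAT replicates 2 and 4 were highest for both Mmp2 and the stromal markers (8.05 and 8.85, against 7.15 and 7.49 in replicates 1 and 3). Without RS replicate 3 the RS difference was -1.73 (limma adjusted p = 0.132). In CL it was -1.64 without CL replicate 4 (limma adjusted p = 0.0721). In RG the call was lost without any 1 of the 3 RG arrays, WAT replicate 2 or WAT replicate 4, with limma adjusted p between 0.0631 and 0.128, and after quantile normalization (-1.97, limma adjusted p = 0.0503). Leaving out RS replicate 3 puts RS at 1 array, which is then assumed to vary like the other groups. WAT replicates 2 and 4 were also the highest WAT arrays for Mmp9, Mmp14, Mmp3, Mmp23, Mmp11, Timp2, Timp3, Adamts5, Adamtsl1, Adamtsl4 and Adamtsl5. This was not so for Mmp12, Mmp19, Timp1, Adamts12, Adamts4 or Adamts1.

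Mmp9, gelatinase B, had values of 4.25, 4.38 and 4.07 in BAT, 5.39, 4.89 and 3.89 in CL, 4.05 and 4.54 in RS, 3.49, 5.15 and 3.56 in RG, and 4.86, 6.75, 4.94 and 6.94 in WAT. WAT replicates 2 and 4 stood above all other arrays, while WAT replicates 1 and 3 were within the ranges of CL and RG. The mean of 6 neutrophil markers was also highest on WAT replicates 2 and 4 (3.35 and 4.43, against at most 3.14 on any other array). The stromal, macrophage and mast cell means were highest there too, and the part of such cells was not tested. Mmp9 fell by 1.64 ± 0.52 in BAT (limma adjusted p = 0.0205) and by 1.81 ± 0.52 in RG (adjusted p = 0.0383). The differences of -1.15 ± 0.52 in CL (adjusted p = 0.117) and -1.58 ± 0.60 in RS (limma adjusted p = 0.068) did not pass. The BAT call was lost without WAT replicate 2 or 4 or BAT replicate 1 or 4 (limma adjusted p between 0.0533 and 0.0607), and the RG call without WAT replicate 2 or 4 or RG replicate 2 or 4 (limma adjusted p between 0.1 and 0.15). Both calls were also lost after quantile normalization (limma adjusted p = 0.0721 in BAT and 0.0704 in RG).

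Mmp14 encodes MT1-MMP, a collagenase anchored in the cell membrane that activates MMP2. Its values were 4.76, 5.73 and 4.63 in BAT, 6.62, 6.57 and 5.42 in CL, 4.80 and 6.58 in RS, 5.80, 7.08 and 5.98 in RG, and 6.65, 8.30, 7.05 and 9.15 in WAT. BAT, CL and RS arrays were all below WAT, and RG replicate 3 was within the WAT range. The gene fell by 2.75 ± 0.57 in BAT (6.72-fold, limma adjusted p = 0.00172) and by 2.10 ± 0.64 in RS (adjusted p = 0.0321). Differences of -1.58 ± 0.57 in CL (adjusted p = 0.0525) and -1.50 ± 0.57 in RG (limma adjusted p = 0.0982) did not pass. The RS call was lost without RS replicate 3 (-1.21, adjusted p = 0.296), WAT replicate 2 (adjusted p = 0.0679) or WAT replicate 4 (limma adjusted p = 0.0683), and after quantile normalization (-1.88, limma adjusted p = 0.0846).

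Mmp3 encodes stromelysin-1, which cuts many matrix proteins and activates other MMPs. It had values of 4.60, 4.95 and 3.64 in BAT, 6.15, 6.34 and 4.97 in CL, 4.06 and 6.75 in RS, 5.73, 6.76 and 4.87 in RG, and 6.24, 7.48, 6.92 and 8.99 in WAT. BAT lay below WAT without overlap, and 1 array each of CL, RS and RG reached into the WAT range. Mmp3 fell by 3.01 ± 0.67 in BAT, or 8.06-fold (limma adjusted p = 0.00277). It was not called in CL (-1.59 ± 0.67, adjusted p = 0.0932), RS (-2.0 ± 0.76, adjusted p = 0.0699) or RG (-1.62 ± 0.67, limma adjusted p = 0.129).

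Mmp23, an MMP that lacks the usual hemopexin domain, was lower in all 4 comparisons. Its values were 3.85, 4.09 and 4.75 in BAT, 4.86, 5.05 and 4.18 in CL, 4.68 and 4.13 in RS, 4.44, 5.46 and 4.91 in RG, and 5.86, 7.24, 6.01 and 7.24 in WAT. No array outside WAT reached the lowest WAT array. Mmp23 fell by 2.36 ± 0.37 in BAT, 1.89 ± 0.37 in CL, 2.18 ± 0.42 in RS and 1.65 ± 0.37 in RG (limma adjusted p between 0.000271 and 0.0121), and the RG call was lost without RG replicate 2 (-1.40, limma adjusted p = 0.0642). Without RS replicate 3 the RS difference was -2.46 (limma adjusted p = 0.0131).

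Mmp12, the metalloelastase best known from macrophages, had the largest difference of the members between rosiglitazone cells and brown adipocytes. Its values were 1.87, 3.22 and 4.56 in BAT, 4.37, 5.05 and 4.96 in CL, 2.59 and 4.35 in RS, 8.24, 8.44 and 4.54 in RG, and 6.21, 5.35, 7.03 and 7.14 in WAT. RG replicates 2 and 3 were the highest arrays of the series for this gene, and RG replicate 4 was within the BAT range. BAT, CL and RS were all below WAT. Against WAT, Mmp12 fell by 3.22 ± 0.82 in BAT (9.29-fold, limma adjusted p = 0.00592) and by 2.96 ± 0.92 in RS (adjusted p = 0.0344, and -2.08 with limma adjusted p = 0.238 without RS replicate 3). The differences were -1.64 ± 0.82 in CL (adjusted p = 0.148) and 0.64 ± 0.82 in RG (limma adjusted p = 0.64), neither called. The RS call was also lost without WAT replicate 3 (adjusted p = 0.0662) or WAT replicate 4 (limma adjusted p = 0.0697), and after quantile normalization (-2.77, limma adjusted p = 0.0828).

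The macrophage marker mean on RG replicates 2, 3 and 4 was 5.53, 5.89 and 4.89, so among the RG arrays the one with the lowest Mmp12 also had the lowest macrophage mean. On RG replicates 2 and 3 this mean was below that of every WAT array, and Mmp12 was above every WAT array. Adgre1, a surface marker of mouse macrophages, averaged 4.20 in RG, against 6.57 in WAT, and Cd68 averaged 5.53 in RG, against 8.36 in WAT. The part of macrophages in the Mmp12 values was not tested.

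Mmp19 and Mmp11 showed smaller differences. Mmp19, which cuts basement membrane proteins, had values of 5.89, 5.90 and 5.18 in BAT, 5.95, 5.97 and 6.0 in CL, 6.55 and 5.75 in RS, 6.91, 6.66 and 6.30 in RG, and 6.37, 6.17, 6.23 and 7.15 in WAT. BAT and CL were below WAT while RS and RG overlapped with it, and of the comparisons with WAT the gene was called in BAT alone (-0.82 ± 0.26, limma adjusted p = 0.0203). That call was lost without WAT replicate 4 (adjusted p = 0.059) or BAT replicate 4 (limma adjusted p = 0.108), and after quantile normalization (-0.49, limma adjusted p = 0.172). Mmp11, stromelysin-3, was of low signal, with values of 2.79 and 2.72 in RS and 3.32, 3.90, 3.54 and 4.84 in WAT. It fell by 1.15 ± 0.35 in RS (adjusted p = 0.0307), a call lost without WAT replicate 2, WAT replicate 4 or either RS array (limma adjusted p between 0.0531 and 0.127).

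**Figure D3:**
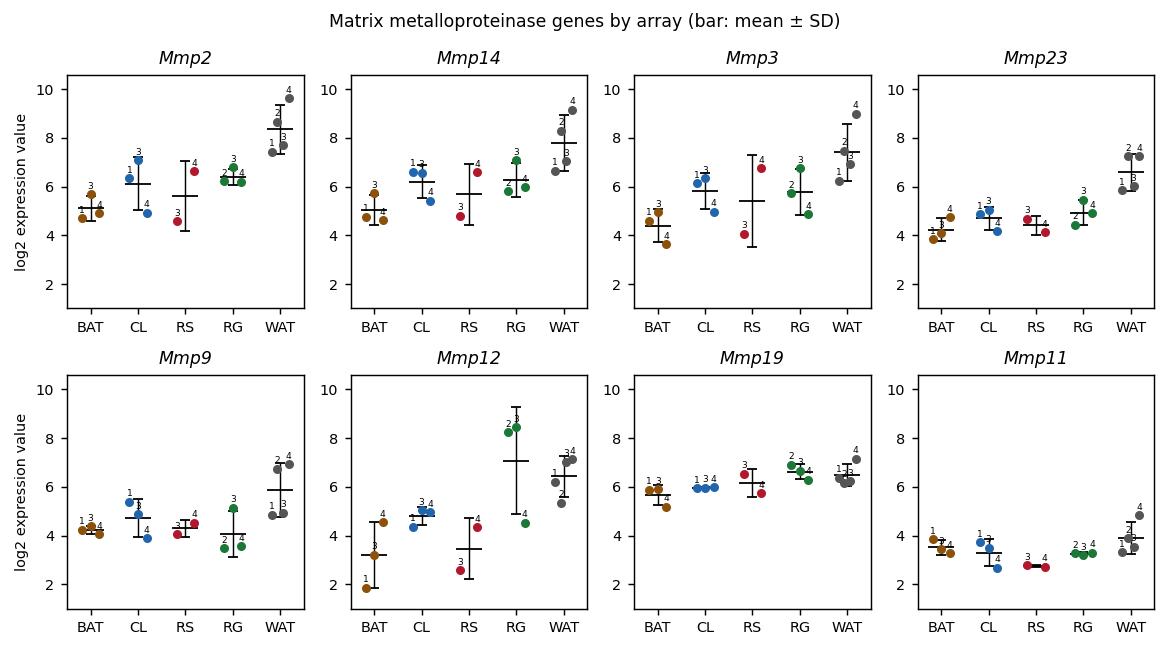
Log2 expression value (vertical axis) of 8 Mmp genes on every array, by group (horizontal axis), with replicate numbers beside the points and bars for the group mean ± SD. For Mmp2 and Mmp23 all points outside WAT lie below the WAT points, and for Mmp12 RG replicates 2 and 3, at 8.24 and 8.44, lie above all other arrays.

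Among the inhibitors, 3 of the 4 Timp genes were lower in BAT and in RS than in WAT, and 1 in CL and 2 in RG, against 16.4% of all probe sets lower in BAT, 10.3% in RS, 9.97% in CL and 6.24% in RG. Timp2, the inhibitor that also takes part in MMP2 activation, had values of 6.23, 6.81 and 5.95 in BAT, 7.29, 7.72 and 6.71 in CL, 5.83 and 7.78 in RS, 7.44, 8.27 and 7.28 in RG, and 8.29, 9.45, 8.71 and 9.87 in WAT. All arrays outside WAT were below the WAT arrays, RG replicate 3 only narrowly. Timp2 fell by 2.75 ± 0.45 in BAT (6.73-fold, limma adjusted p = 0.000339), 1.84 ± 0.45 in CL (adjusted p = 0.00918) and 2.28 ± 0.51 in RS (limma adjusted p = 0.00754). The difference in RG was -1.42 ± 0.45 (limma adjusted p = 0.0518). Without RS replicate 3 the RS difference was -1.30 (limma adjusted p = 0.115), and without CL replicate 4 the CL difference was -1.58 (limma adjusted p = 0.0501).

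Timp3, which binds to the matrix and inhibits ADAMTS proteases and ADAM17 as well as MMPs, was lower in 3 of the 4 comparisons. Its values were 6.91, 7.29 and 7.33 in BAT, 8.30, 8.78 and 7.59 in CL, 6.40 and 8.18 in RS, 6.74, 6.77 and 7.76 in RG, and 8.55, 9.17, 9.03 and 9.15 in WAT. BAT, RS and RG were below WAT, and CL replicate 3 lay within the WAT range. Timp3 fell by 1.80 ± 0.37 in BAT (limma adjusted p = 0.0018), 1.69 ± 0.42 in RS (adjusted p = 0.0136) and 1.89 ± 0.37 in RG (limma adjusted p = 0.00656). The difference in CL was -0.75 ± 0.37 (adjusted p = 0.148), and that of CL against RG was 1.13 ± 0.40 (limma adjusted p = 0.134). Without RS replicate 3 the difference of RS against WAT was -0.80 (limma adjusted p = 0.213), while the RG call remained when any 1 array was left out.

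Timp1, the TIMP that is often induced in inflamed tissue, was of low signal. Its values were 2.93, 2.93 and 2.54 in BAT, 3.10, 3.07 and 3.45 in CL, 2.47 and 2.68 in RS, 3.17, 2.95 and 2.52 in RG, and 3.32, 3.56, 4.32 and 4.74 in WAT. BAT, RS and RG were below WAT and CL overlapped with it. Timp1 fell by 1.19 ± 0.28 in BAT (limma adjusted p = 0.00405), 1.41 ± 0.32 in RS (adjusted p = 0.00825) and 1.11 ± 0.28 in RG (limma adjusted p = 0.0214). The RS call was lost without RS replicate 3 (-1.31, limma adjusted p = 0.0533), and the RG call without WAT replicate 3, WAT replicate 4 or RG replicate 4 (limma adjusted p between 0.0508 and 0.108).

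Timp4, the TIMP known for its expression in fat and heart, was called in no comparison. Its values were 5.73, 5.61 and 6.21 in BAT, 6.51, 6.74 and 6.09 in CL, 5.0 and 5.32 in RS, 5.24, 5.32 and 6.65 in RG, and 6.01, 6.40, 6.55 and 5.19 in WAT, with overlap of all groups except RS against BAT and CL. The difference in BAT against WAT was -0.19, with a 95% confidence interval of -0.93 to 0.55 (limma adjusted p = 0.681). In RS against CL it was -1.29, with an interval of -2.17 to -0.40 (limma adjusted p = 0.132).

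Of the 7 ADAMTS proteases that cut proteoglycans, 4 were lower and 1 higher in BAT than in WAT, 2 were lower in CL, 1 was lower in RG and limma called 0 in RS. Of all probe sets, 16.4% were lower and 27.6% higher in BAT, 9.97% lower in CL and 6.24% lower in RG. In RS 21.4% of all probe sets were called. Adamts5, a main aggrecanase, had values of 4.30, 4.53 and 4.52 in BAT, 5.28, 4.97 and 4.71 in CL, 6.78 and 5.10 in RS, 5.41, 5.68 and 5.74 in RG, and 6.07, 6.80, 5.84 and 6.95 in WAT. BAT, CL and RG were below WAT, and RS replicate 3 was within the WAT range. Adamts5 fell by 1.97 ± 0.33 in BAT (limma adjusted p = 0.000457) and by 1.43 ± 0.33 in CL (limma adjusted p = 0.00751). The differences in RS (-0.48 ± 0.38, adjusted p = 0.367) and RG (-0.81 ± 0.33, limma adjusted p = 0.127) were not called.

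Adamts4, the other main aggrecanase, had values of 3.95, 4.81 and 6.74 in BAT, 5.65, 6.13 and 4.90 in CL, 4.61 and 5.78 in RS, 6.09, 6.0 and 5.81 in RG, and 6.63, 6.10, 6.75 and 6.76 in WAT. BAT replicate 4 was level with WAT while the other BAT arrays were far below. The gene fell by 1.39 ± 0.49 in BAT (limma adjusted p = 0.0304) and was not called in the other comparisons with WAT. This call was lost without 5 of the 7 arrays of the comparison in turn (limma adjusted p between 0.0533 and 0.195), and after quantile normalization (limma adjusted p = 0.119). Adamts1, which cuts versican, had values of 7.14, 7.25 and 8.47 in BAT, 7.92, 7.88 and 7.20 in CL, 8.83 and 8.15 in RS, 8.18, 8.22 and 8.15 in RG, and 8.54, 8.36, 8.22 and 8.37 in WAT. It too was high on BAT replicate 4, within the WAT range, and fell by 0.75 ± 0.28 in BAT (limma adjusted p = 0.0399), a call lost without any 1 of 6 of the 7 arrays (limma adjusted p between 0.0503 and 0.194) and after quantile normalization (limma adjusted p = 0.116). Adamts9, a relative of Adamts1 that also cuts versican, differed by 0.01 ± 0.36 in BAT against WAT (limma adjusted p = 0.989) and was called in no comparison.

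Adamts12, which can cut the cartilage matrix protein COMP, was lower in brown adipocytes than in white ones. Its values were 4.76, 4.46 and 3.64 in BAT, 5.57, 5.94 and 5.84 in CL, 6.59 and 5.35 in RS, 6.35, 5.56 and 6.16 in RG, and 5.69, 5.59, 5.73 and 7.17 in WAT. BAT was below every other array, and CL, RS and RG overlapped with WAT. Adamts12 fell by 1.76 ± 0.39 in BAT against WAT (limma adjusted p = 0.00246). It was higher by 1.74 ± 0.41 in RG than in BAT (3.33-fold, limma adjusted p = 0.0142), a call lost without BAT replicate 4 (1.41, adjusted p = 0.0559) or RG replicate 2 (1.57, limma adjusted p = 0.0573). The differences against BAT were 1.5 ± 0.41 in CL (adjusted p = 0.0696) and 1.68 in RS (limma adjusted p = 0.0558), neither called.

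The ADAMTS-like proteins resemble the ADAMTS family but have no protease domain, and several bind fibrillin in microfibrils. Adamtsl1 had values of 3.98, 4.80 and 4.00 in BAT, 4.62, 4.82 and 3.92 in CL, 3.24 and 3.80 in RS, 4.09, 4.89 and 4.72 in RG, and 5.75, 7.30, 6.14 and 7.65 in WAT. Every array outside WAT was below every WAT array. Adamtsl1 fell by 2.45 ± 0.40 in BAT, 2.26 ± 0.40 in CL, 3.19 ± 0.45 in RS and 2.14 ± 0.40 in RG (limma adjusted p between 0.000361 and 0.0047). These calls remained under every alternative run. The filter on group means over 5 is no check here, because Adamtsl1 passed it through WAT alone. Without RS replicate 3 the RS difference was -2.91.

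Adamtsl5 had values of 4.24, 4.35 and 4.87 in BAT, 4.60, 3.93 and 4.30 in CL, 4.49 and 4.12 in RS, 4.17, 4.67 and 4.14 in RG, and 5.12, 5.50, 5.09 and 5.73 in WAT. It fell in all 4 comparisons, by 0.87 ± 0.23 in BAT, 1.08 ± 0.23 in CL, 1.06 ± 0.26 in RS and 1.03 ± 0.23 in RG (limma adjusted p between 0.00419 and 0.0113), with no overlap with WAT. The RS call was lost without RS replicate 4 (-0.87, limma adjusted p = 0.0973). After quantile normalization the difference was -0.53 in BAT (adjusted p = 0.108) and -0.75 in RS (limma adjusted p = 0.0796), and both calls were lost. Adamtsl4, known for its binding to fibrillin-1, had values of 4.58, 4.42 and 4.72 in BAT, 4.73, 4.68 and 4.48 in CL, 5.08 and 5.21 in RS, 4.39, 5.21 and 4.20 in RG, and 5.24, 6.12, 5.52 and 6.39 in WAT. It fell by 1.24 ± 0.27 in BAT, 1.19 ± 0.27 in CL and 1.22 ± 0.27 in RG (limma adjusted p between 0.00211 and 0.0107), and all arrays outside WAT were below WAT. In RS it was not called. The RG calls of Adamtsl4 and Adamtsl5 were lost without RG replicate 2 or RG replicate 4 (limma adjusted p between 0.0518 and 0.064). The other pair of this family, Adamtsl2 and Adamtsl3, was not called.

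**Figure D4:**
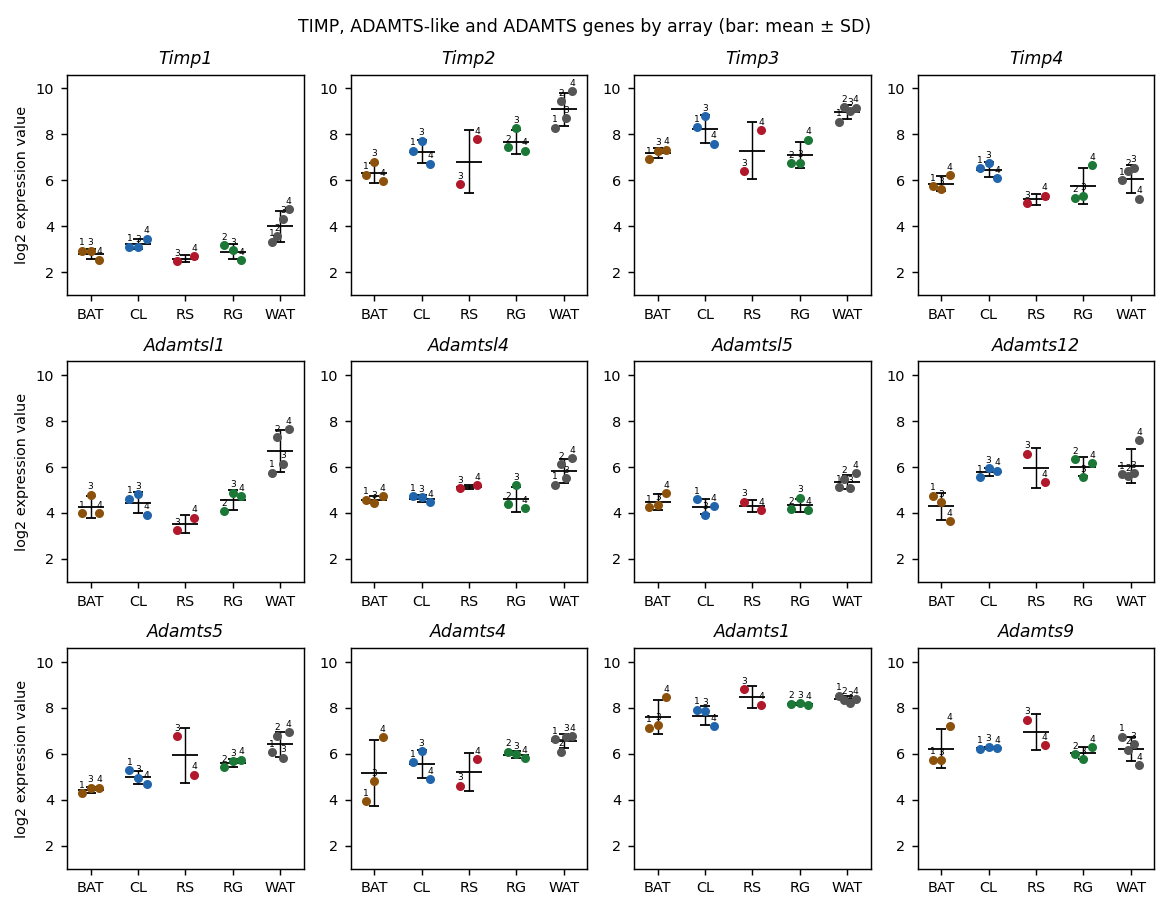
Log2 expression value (vertical axis) of Timp, Adamts and Adamtsl genes on every array, by group (horizontal axis), with replicate numbers beside the points and bars for the group mean ± SD. Adamtsl1 and Timp2 lie below WAT on all arrays outside it, Timp4 overlaps with WAT in every group, and Adamts12 is lowest on the BAT arrays.

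The members called higher than in WAT were all of low signal, with no group mean above 5. Adamts3, a procollagen N-proteinase, and Mmp1a, an interstitial collagenase, were higher in BAT, CL and RS. Mmp1b was higher in BAT and CL, and Mmp24, a membrane-type MMP, in BAT and RS. Mmp10, Mmp16, Adamts13, Adamts18 and Adamts20 were called higher in BAT and Adamts6 in RS. Mmp16, another membrane-type MMP, had values of 3.59, 2.62 and 3.62 in BAT and 2.43, 2.22, 2.01 and 1.82 in WAT, a rise of 1.16 ± 0.24 (limma adjusted p = 0.00161). Mmp10, stromelysin-2, had values of 3.64, 3.48 and 3.57 in BAT and 2.58, 2.79, 2.57 and 2.51 in WAT, a rise of 0.95 ± 0.13 (limma adjusted p = 0.000102). BAT was above WAT without overlap for both genes. The BAT calls of Adamts3, Mmp1a, Mmp1b, Mmp10, Mmp16 and Adamts20 remained when any 1 array was left out, but 4 of these 6 were lost after quantile normalization. The difference was then 0.12 for Mmp1a (adjusted p = 0.661), 0.18 for Mmp1b (adjusted p = 0.426), 0.14 for Adamts20 (adjusted p = 0.455) and 0.32 for Adamts3 (limma adjusted p = 0.104). The BAT call of Mmp24 was lost without BAT replicate 1 (limma adjusted p = 0.0513), and those of Adamts13 and Adamts18 were lost without BAT replicate 3, BAT replicate 4 or WAT replicate 2, 3 or 4, and for Adamts18 also without WAT replicate 1 (limma adjusted p between 0.0674 and 0.19). In CL the call of Adamts3 was lost without CL replicate 1 or 3, that of Mmp1a without CL replicate 1, and that of Mmp1b without CL replicate 3 or 4 or WAT replicate 1, 2 or 4 (limma adjusted p between 0.0506 and 0.154). The 4 calls in RS were all lost without RS replicate 3 (limma adjusted p between 0.0737 and 0.344), those of Adamts3 and Mmp24 also without RS replicate 4, that of Mmp1a without any 1 WAT array, and that of Adamts6 without WAT replicate 3 or 4. After quantile normalization all 3 calls in CL were lost (limma adjusted p between 0.281 and 0.726), and so were those of Adamts3, Mmp1a and Adamts6 in RS (limma adjusted p between 0.105 and 0.495). Among all 19170 probe sets with a mean over all arrays of 5 or less, 32.2% were called higher in BAT, against 9 of the 35 members at this signal. The median difference of all probe sets in BAT against WAT was 0.18 as deposited, 0.08 after median centring and 0.03 after quantile normalization. After quantile normalization 4 members were higher in BAT, Mmp10, Mmp16 and Mmp24 among them, and Adamts18 turned to -0.05 (limma adjusted p = 0.831). The 10th percentile of all values lay between 2.11 and 2.15 on the BAT arrays and between 1.51 and 1.68 on the WAT arrays.

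The remaining low-signal members called lower were Adamts15 and Adamts7. Adamts15, which cuts versican, fell by 0.76 ± 0.17 in BAT, 0.65 ± 0.17 in CL and 0.54 ± 0.17 in RG (limma adjusted p between 0.00257 and 0.0494), and the RG call was lost without any 1 of its 7 arrays and the CL call without CL replicate 3 (limma adjusted p = 0.0518). After quantile normalization both were lost (limma adjusted p = 0.0644 in CL and 0.209 in RG). Adamts7, which like Adamts12 can cut COMP, fell by 0.51 ± 0.15 in RG (limma adjusted p = 0.0378), a call lost without 6 of the 7 arrays in turn and after quantile normalization (limma adjusted p = 0.0768). In all, 30 of the 49 members (61.2%) were called in at least 1 comparison with WAT, against 55.5% of all probe sets, and 19 in none.

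Rosiglitazone cells differed from brown adipocytes in 10 members, against 14.3% of all probe sets, with 4 higher (8.16% of members, against 5.85% of probe sets) and 6 lower (12.2%, against 8.42%). Mmp12 was higher by 3.86 ± 0.87, which is 14.5-fold (limma adjusted p = 0.0117), although RG replicate 4 lay within the BAT range. Without RG replicate 2 this difference was 3.27 (adjusted p = 0.0522) and without RG replicate 3 it was 3.17 (limma adjusted p = 0.0541). Adamts12, given above, Adamts5 (1.16 ± 0.36, adjusted p = 0.0414) and Mmp19 (0.97 ± 0.28, limma adjusted p = 0.0341) were also higher in RG than in BAT. For these 3 genes the arrays did not overlap between RG and BAT. The Adamts5 call was lost without any 1 of the 6 arrays, and that of Mmp19 without BAT replicate 4, RG replicate 2 or RG replicate 3. Both were also lost after quantile normalization (limma adjusted p = 0.0914 for Adamts5 and 0.102 for Mmp19). Mmp16, Mmp1b, Mmp8, Adamts3, Mmp10 and Mmp24, all of low signal, were lower in RG than in BAT, by 0.54 to 0.94, and after quantile normalization the calls of Mmp16, Mmp1b, Mmp8 and Adamts3 were lost (limma adjusted p between 0.0683 and 0.122). The count of 10 was 1 without RG replicate 3 and 2 without RG replicate 2. Over all probe sets the calls fell from 3596 to 1593 and 1700 in the same order. The 95% interval for Mmp2 in RG against BAT was 0.01 to 2.60 (1.30 ± 0.61, limma adjusted p = 0.157), so this comparison leaves a wide range for the gelatinase.

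The other comparisons with BAT and those among the treated groups called few or no members. In CL against BAT 1 member was called, Mmp10, which was lower by 0.68 ± 0.14 (limma adjusted p = 0.0239), against 2.05% of all probe sets called and 1.42% called lower. That call was lost without BAT replicate 1 or any 1 CL array (limma adjusted p between 0.0533 and 0.0701) and in the fit of these 2 groups alone (limma adjusted p = 0.137). In RS against BAT limma called 0 members, with 8 at an unadjusted p under 0.05, against 3.67% of all probe sets called. Adamts5 came nearest, higher in RS by 1.49, with a 95% interval of 0.65 to 2.33 (limma adjusted p = 0.0502). The lack of calls does not show that RS and BAT are alike. In RS against CL limma called 0 members, with 4 at an unadjusted p under 0.05, against 1.27%. In RS against RG it was 0 members, with 6 at an unadjusted p under 0.05, against 0.682%, and in CL against RG 0 members, with 7, against 2.87%. Mmp12 in RS against RG had a difference of -3.60 and a 95% interval of -5.68 to -1.53 (limma adjusted p = 0.0797). In CL against RG its difference was -2.28, with an interval of -4.13 to -0.43 (limma adjusted p = 0.164). Both intervals, which are not adjusted for the number of probe sets, lay below 0. The doses and times of the drugs are not given, so the treated groups are not matched.

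The RS arrays differed from each other for many members. RS replicate 3 was lower than RS replicate 4 for Mmp2 (4.59 and 6.63), Mmp14 (4.80 against 6.58), Mmp3 (4.06 against 6.75), Timp2 (5.83 against 7.78) and Timp3 (6.40 against 8.18). It was higher for Adamts5 (6.78 against 5.10), Adamts12 (6.59 against 5.35) and Adamts9 (7.49 against 6.39). RS replicate 3 also had lower means than RS replicate 4 of stromal markers (4.80 against 6.07) and endothelial markers (4.17 against 6.28). With WAT replicate 4 and RS replicate 3 both left out, 5 members were called in RS against WAT, of which 3 were among the 14.

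Other genes of pericellular proteolysis and its matrix substrates differed from WAT mostly downwards. They were chosen with earlier results of these data known, so their shares are a description and not independent support. Of 46 genes measured from a list of 49 plasminogen activators, cathepsins, ADAMs, inhibitors and matrix proteins, 25 were lower and 5 higher in BAT, 19 lower and 3 higher in CL, 18 lower and 3 higher in RS, and 13 lower and 1 higher in RG. The lower ones were 54.3% of the list in BAT (against 16.4% of all probe sets), 41.3% in CL (against 9.97%), 39.1% in RS (against 10.3%) and 28.3% in RG (against 6.24%). The higher ones were 10.9% in BAT (against 27.6%), 6.52% in CL (against 15.2%), 6.52% in RS (against 11.1%) and 2.17% in RG (against 5.19%). Of the list, 24 genes had a mean over all arrays above 5, and their median difference was -1.15 in BAT, -0.83 in CL, -0.75 in RS and -0.74 in RG, against -0.25 in BAT, -0.11 in CL, -0.21 in RS and -0.01 in RG over all probe sets at this signal. Of these 24, limma called 17 lower in BAT (against 34.4% of probe sets at this signal), 12 in CL (against 19.4%), 11 in RS (against 21.0%) and 10 in RG (against 10.5%). Plau, the urokinase-type plasminogen activator, fell by 2.78 in BAT, 1.90 in CL, 2.57 in RS and 1.85 in RG. Plat, the tissue-type activator, fell by 2.20 in BAT, 2.14 in CL, 3.12 in RS and 1.87 in RG. Reck, a membrane-anchored MMP inhibitor, fell by 1.89 in BAT, 1.32 in CL, 2.44 in RS and 1.79 in RG. Vcan, which encodes the ADAMTS substrate versican, fell by 2.09 in BAT, 1.86 in CL, 1.20 in RS and 1.68 in RG, and Pcolce2, an enhancer of procollagen processing, by 3.14 in BAT, 1.94 in CL, 2.40 in RS and 1.75 in RG. Ncan, which encodes the proteoglycan neurocan, rose in all 4 comparisons, least in CL (1.08) and most in RG (1.62). All calls named here are at limma adjusted p under 0.05. Furin, which activates MMP14 and other proenzymes, averaged 7.54 in BAT, 7.30 in CL, 7.00 in RS, 6.95 in RG and 7.17 in WAT and was not called. Dcn, which encodes the proteoglycan decorin, stands both in this list and among the stromal markers.

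The positions of the genes and their promoters add a view that the arrays did not use. In the RefSeq annotation (GRCm38.p6), 10 Mmp genes follow each other on chromosome 9 with no other protein-coding gene starting between them, among them Mmp12 and Mmp3, the only 2 of the 10 with a group mean above 5. Adamts1 and Adamts5 are neighbours on chromosome 16. Of the 49 members, 34 had a promoter entry in RefSeq, with 37 transcription starts. The 250 bases before each start were searched on both strands for 5 motifs. They were the AP-1 motif, spelled TGANTCA, and the TATA box, spelled TATAAA. The others were the CCAAT box, spelled by its name, the GC box with the letters GGGCGG, and the cAMP response element TGACGTCA. An AP-1 motif was present in 8 of 37 windows (21.6%), against 6.75% of all 32851 windows. All 8 belonged to the run of 10 Mmp genes on chromosome 9, and none to the 24 other members with an entry. A TATA box was present in 27% of the members' windows, against 12.4% of all, a GC box in 48.6%, against 32.7%, and CCAAT in 21.6%, against 33.8%. The cAMP response element was in none of the members' windows and in 1.55% of all windows. A match is a description of the letters and not of a bound factor.

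The promoters of 5 members that fell in BAT are shown because they contrast the chromosome 9 genes with Mmp14 and the inhibitors. Each is the 250 bases before the start, read 5′ to 3′ on the gene's strand, with motif matches in capitals on either strand. In Mmp14 (chr14:54431348-54431597, plus strand) the capitals near the end join a CCAAT match, read as ATTGG, to 2 GC boxes, and the CCAAT and the first GC box share 1 base.
Mmp14: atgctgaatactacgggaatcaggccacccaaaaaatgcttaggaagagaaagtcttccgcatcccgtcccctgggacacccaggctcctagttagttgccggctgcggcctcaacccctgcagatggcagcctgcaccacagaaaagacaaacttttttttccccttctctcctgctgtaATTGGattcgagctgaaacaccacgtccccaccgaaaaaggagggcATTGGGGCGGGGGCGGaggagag
In Mmp3 (chr9:7445572-7445821, plus strand) the AP-1 motif lies 46 bases before the start, and a TATAAA match lies 7 bases before it.
Mmp3: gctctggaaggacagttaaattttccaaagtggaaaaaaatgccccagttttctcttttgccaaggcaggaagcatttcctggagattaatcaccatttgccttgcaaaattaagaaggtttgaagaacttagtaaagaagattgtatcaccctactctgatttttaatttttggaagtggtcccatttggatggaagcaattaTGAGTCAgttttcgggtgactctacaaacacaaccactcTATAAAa
Mmp12 has 2 listed starts, the upstream one (chr9:7344147-7344396, plus strand) without any of the motifs and the downstream one (chr9:7347124-7347373, plus strand) with an AP-1 motif 44 bases before the start.
Mmp12 upstream start: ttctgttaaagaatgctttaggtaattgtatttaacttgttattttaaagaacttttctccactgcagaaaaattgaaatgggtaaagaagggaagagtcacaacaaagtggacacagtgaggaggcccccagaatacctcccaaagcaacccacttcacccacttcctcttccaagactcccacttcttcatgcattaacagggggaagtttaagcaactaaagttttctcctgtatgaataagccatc
Mmp12 downstream start: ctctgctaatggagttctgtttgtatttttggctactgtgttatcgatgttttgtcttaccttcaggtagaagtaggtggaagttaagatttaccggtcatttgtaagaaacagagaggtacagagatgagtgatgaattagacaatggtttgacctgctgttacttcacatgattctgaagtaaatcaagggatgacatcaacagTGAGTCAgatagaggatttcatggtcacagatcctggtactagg
Timp2 (chr11:118355412-118355661, minus strand) and Timp3 (chr10:86300162-86300411, plus strand) held GC boxes and no AP-1 or TATA match in these windows.
Timp2: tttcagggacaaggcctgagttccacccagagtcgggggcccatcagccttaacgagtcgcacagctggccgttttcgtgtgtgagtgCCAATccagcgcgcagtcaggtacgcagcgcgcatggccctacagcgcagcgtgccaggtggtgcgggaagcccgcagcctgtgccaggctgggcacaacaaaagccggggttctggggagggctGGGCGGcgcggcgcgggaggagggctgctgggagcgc
Timp3: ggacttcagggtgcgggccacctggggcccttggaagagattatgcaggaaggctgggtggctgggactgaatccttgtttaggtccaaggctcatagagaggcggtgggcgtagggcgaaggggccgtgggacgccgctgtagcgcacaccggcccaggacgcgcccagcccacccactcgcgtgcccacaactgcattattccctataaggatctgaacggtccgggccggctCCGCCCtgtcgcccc
Of these 5 genes, Mmp3 and Mmp12 hold an AP-1 match, and Mmp14, Timp2 and Timp3 hold none. All 5 were lower in BAT than in WAT, because they were chosen so. Of the 11 members with an entry that were lower in BAT, 2 held an AP-1 match, against 8 of all 34. Mmp1a, Mmp1b and Mmp10, which also hold an AP-1 match, were higher in BAT, at low signal. Mmp7, Mmp13 and Mmp20 hold an AP-1 match as well and were not called in BAT against WAT.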

How the data were processed

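Per the labels, 2 ng of total RNA was amplified with the WT Pico kit. The authors deposited a log2 expression value for each probe set on each array. RMA, Affymetrix Expression Console and affy 1.36.1 stand in the submitters' processing notes, without role or order. Probe sets were named through the platform annotation by the Entrez number in their identifier, and 2021 of 25206 had no symbol. Values were used as deposited, with no filter. One limma model (limma 3.58.1, R 4.3.3) with a mean per group was fitted over 15 arrays, giving 10 two-sided comparisons, each adjusted by Benjamini-Hochberg across its probe sets. The fit was tested on simulated data. Alternatives were median centring, quantile normalization, a filter on group means over 5, a trended robust fit, a replicate block, 2-group fits, leaving out each array, and leaving out WAT replicate 4 and RS replicate 3 together. Values on every array are given for members called against WAT with a group mean over 5 and for all Timp genes; others by counts, ranges and examples. The members, lists and motifs were chosen with earlier results of these data known. Arrays carry no read depth, and their number limits precision. Batches are not given in the sources used here.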

Additional observations from a re-analysis of the deposited data

Results flagged for a closer look

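Among the 4 WAT arrays, 1 array stood far from the others for 5 of the 49 members, with its gap to the nearest array taking most of the whole range (Dixon's test at the 95% level). Chance alone gives such a gap in about 1 in 20 groups. For Adamts12, WAT replicate 4 was at 7.17, against 5.59 to 5.73 on the others (gap 0.911 of the range). For Mmp25, a membrane-type MMP, WAT replicate 4 was at 5.12, against 3.16 to 3.41 (0.872). WAT replicate 4 was low for Adamts20, at 2.21 against 2.28 to 2.29 (0.875), and for Mmp21, at 2.18 against 2.39 to 2.42 (0.875). WAT replicate 2 was low for Mmp17, at 3.02 against 3.13 to 3.15 (0.846). The last 3 gaps are small and at low signal. Groups of 3 or fewer arrays were not examined in this way.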

How the results depend on the processing

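The number of members called in BAT against WAT was 27, and it was 17 after quantile normalization, 16 when probe sets without a group mean over 5 were left out, and between 22 and 25 when 1 array was left out. That filter keeps members through their highest group and tests fewer of them. Over all probe sets the calls in BAT against WAT fell too, from 11096 to 6220 after quantile normalization and 3877 under the filter. In RG against BAT they fell from 3596 to 2021 after quantile normalization, 1271 under the filter and 347 with the replicate block. In CL against WAT the number of members was 11, with 7 under the filter, 7 with a replicate block, and 8 to 13 without 1 array. In RS against WAT it was 14, with 9 after quantile normalization, 8 under the filter, 7 with the replicate block, 5 without both WAT replicate 4 and RS replicate 3, and 6 to 16 without 1 array. In RG against WAT it was 10, with 5 under the replicate block, 5 without both of those arrays, and 3 to 12 without 1 array. CL against BAT called 1 member, but 0 under the filter, the replicate block and the 2-group fit and 2 without both arrays, and 0 to 1 without 1 array. RS against BAT called 0, with 3 after quantile normalization, 2 under the filter, 1 with the trended robust fit, and 0 to 2 without 1 array. RG against BAT called 10, with 4 after quantile normalization, 4 under the filter, 0 with the replicate block, and 1 to 8 without 1 array. RS against CL gave 0 to 2, RS against RG 0 to 1 and CL against RG 0 to 1 without 1 array. Adamts18 in BAT against WAT was -0.0513 after quantile normalization and 0.36 as deposited. Of 73 calls of single members, 66 held after median centring, 42 after quantile normalization, 72 with the trended robust fit and 57 with the 2-group fits. With the replicate block 38 of 73 held. Whether the replicate numbers pair the arrays was not settled. Across 24 pairs of equal number the correlations of deviations from the group means were all below 0, between -0.88 and -0.05. By this measure 0 of 15 arrays correlated best with its own number. Whether a part shared by equal numbers was taken out before deposit is not known, so this check cannot decide on pairing. After median centring the share of higher among all calls was 51.5% in BAT, 50.7% in CL, 39.2% in RS and 42.7% in RG, against 62.6% in BAT, 60.4% in CL, 51.7% in RS and 45.4% in RG as deposited. The causes of these shifts were not tested. The number of arrays, 2 to 4 in a group, limits all of these results.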
